A study of Mus musculus with 4 samples.

Results

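Guanylate-binding proteins (GBPs) and immunity-related GTPases (IRGs) are interferon-inducible GTPases of mouse cells, and 10 of their genes were followed here through an interferon alpha (IFNa) time course in CD4+ T cells. The genes were taken by name: Gbp2, Gbp3, Gbp5, Gbp7, Gbp9 and Gbp11 of the GBPs, and Irgm1, Irgm2, Igtp and Iigp1 of the IRGs. Of the 10, 7 had a row of the array that the platform's annotation gives to that gene alone, out of 19752 genes with such a row, and all 7 were among the 10699 genes bright enough to be tested. Gbp2, Irgm2 and Igtp lay only on rows shared with a relative and are described separately. The cells were splenic CD4+ T cells of male C57BL/6 mice, 6 weeks of age, enriched by negative selection and activated for 48 h with beads against CD3 and CD28. There were 2 baseline arrays of activated cells not given cytokine, 1 array of activated cells after 2 h of IFNa at 100 U/ml and 1 array after 8 h at the same dose. Whether the baseline samples were separate mice or cultures is not in the labels. A p-value here thus sets a difference against how far those 2 arrays lay apart, possibly for technical reasons only. That spread was drawn largely from all genes tested (7.46 prior degrees of freedom, beside 1 of the gene's own). Each IFNa time is 1 array assumed to vary like the baseline arrays.

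GBPs are large GTPases of the dynamin superfamily that assemble on pathogen vacuoles and on bacteria in the cytosol, where they disrupt membranes and expose microbial ligands to inflammasomes. IRGs are smaller GTPases of the same defence: in mice the effector IRGs, such as Iigp1, load onto the vacuole, while Irgm1, Irgm2 and Igtp (also called Irgm3) sit on the cell's own membranes and hold the effectors inactive there. Both families are best known as targets of interferon gamma, through a STAT dimer that binds the gamma-activated site, and are also induced by type I interferon through ISGF3, the complex that binds the interferon-stimulated response element. In T cells of mice, Irgm1 is known to be needed for the survival of effector cells exposed to interferon gamma.

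The promoters of the genes are shown because 4 of the 7 tested members rose at 2 h. RefSeq windows (build GRCm38.p6, from 250 bases before the annotated start to 50 after it) were searched for 7 of the 10 members, in 8 windows. No window was at hand for Gbp9 and Gbp11. Iigp1, which rose at 2 h, was left out of the search by choice, so nothing is said of its promoter. The core of the interferon-stimulated response element (GAAA, any 2 bases, GAAA) was searched on both strands, and the gamma-activated site as TTCNNNGAA, which reads the same on both strands. All 7 searched members held the first pattern in a window, and 4 held the second, Gbp5, Gbp7, Irgm2 and Igtp. Of all 32851 windows of this length in the table, 3.44% held the first pattern, 8.3% the second and 0.454% both. The windows of the 4 members with both a row of their own and a searched window follow, 5′ to 3′ on the strand of the gene. Matches are in capitals, and for Gbp3, which has 2 annotated starts, the window with matches is given.
Gbp3 (chr3:142559794-142560093, plus strand): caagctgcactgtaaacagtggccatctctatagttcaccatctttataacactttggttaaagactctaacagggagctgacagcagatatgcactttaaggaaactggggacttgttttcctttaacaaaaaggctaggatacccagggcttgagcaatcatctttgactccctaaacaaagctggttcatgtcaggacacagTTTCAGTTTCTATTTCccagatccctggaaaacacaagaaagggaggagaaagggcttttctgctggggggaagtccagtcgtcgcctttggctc
Gbp5 (chr3:142496684-142496983, plus strand): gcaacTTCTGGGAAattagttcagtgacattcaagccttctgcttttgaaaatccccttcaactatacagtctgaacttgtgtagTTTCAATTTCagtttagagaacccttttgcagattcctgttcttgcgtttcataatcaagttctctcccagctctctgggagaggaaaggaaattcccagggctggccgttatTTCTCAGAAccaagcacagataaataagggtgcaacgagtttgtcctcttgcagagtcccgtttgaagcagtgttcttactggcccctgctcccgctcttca
Gbp7 (chr3:142530086-142530385, plus strand): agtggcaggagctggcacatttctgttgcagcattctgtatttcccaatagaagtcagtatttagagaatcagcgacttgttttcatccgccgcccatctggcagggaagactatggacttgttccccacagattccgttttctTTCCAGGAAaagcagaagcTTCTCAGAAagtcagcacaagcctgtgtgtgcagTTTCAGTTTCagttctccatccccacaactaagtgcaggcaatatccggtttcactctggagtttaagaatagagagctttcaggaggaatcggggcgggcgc
Irgm1 (chr11:48871371-48871670, minus strand): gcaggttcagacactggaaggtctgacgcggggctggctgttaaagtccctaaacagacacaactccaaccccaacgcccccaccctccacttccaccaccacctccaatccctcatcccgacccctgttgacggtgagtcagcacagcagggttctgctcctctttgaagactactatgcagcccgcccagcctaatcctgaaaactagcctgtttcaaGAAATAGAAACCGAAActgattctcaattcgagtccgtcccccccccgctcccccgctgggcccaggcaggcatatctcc
In Gbp3 the matches TTTCAGTTTC and TTTCTATTTC overlap, with first bases 45 and 39 bases before the start, and in Irgm1 GAAATAGAAA and GAAACCGAAA overlap at 30 and 24 bases. Gbp5 had its match to the response element, TTTCAATTTC, farther out, at 165 bases, and Gbp7 had TTTCAGTTTC at 53. Matches to the gamma-activated site lay 245 and 52 bases before the start of Gbp5 (TTCTGGGAA and TTCTCAGAA) and 106 and 87 before that of Gbp7 (TTCCAGGAA and TTCTCAGAA). Among the members without a row of their own, Gbp2 held TTTCACTTTC at 59 bases, while Irgm2 and Igtp each held GAAACTGAAA, at 64 and 34 bases, 2 bases after the end of a gamma-activated site pattern, TTCCAGGAA in Irgm2 and TTCTAGGAA in Igtp; these genes lie side by side on chromosome 11. A match is a run of letters and does not show that a factor binds there.

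The deposited values are intensities on the linear scale, and differences are given here on the log2 scale. Over all rows the arrays had unlike distributions: the baseline arrays had medians of 195 and 183, the 2 h array 176 and the 8 h array 199, with 75th percentiles between 574 (8 h) and 769 (2 h). The median difference over all genes tested was 0.06 at 2 h against baseline, −0.16 at 8 h against baseline and −0.25 at 8 h against 2 h. After quantile normalization these were −0.01, 0.00 and 0.00, while centring the arrays on their medians gave 0.15, −0.24 and −0.43. Differences are therefore also given relative to the median of all genes tested. That median moved with brightness: for 8 h against 2 h it was 0.12 with no filter and −0.32 with a filter at the 60th percentile. It thus need not be the shift at the brightness of the members. The split of called genes moved with the scaling as well. At 2 h 117 genes were called higher and 1 lower, against 332 and 109 after quantile normalization. At 8 h the calls were 70 higher and 358 lower (665 and 901 after quantile normalization, or 105 and 258 with quantile values and the spread of the deposited ones), and for 8 h against 2 h 156 higher and 1155 lower (992 and 1316, 215 and 511, or 72 and 2315 on centred arrays). All 8 CD4+ T cell markers with a row of their own passed the brightness filter, among them Cd4, at 3242 and 5533 at baseline, then 4801 at 2 h and 5240.1 at 8 h. Il2ra read 12446 and 11813 at baseline, then 11506 at 2 h and 8480.2 at 8 h. Both CD8 T cell markers passed the filter as well, with Cd8b1 at 880 and 822 at baseline, then 762 at 2 h and 938 at 8 h. All 6 dendritic cell markers and 7 of 9 macrophage and monocyte markers were dim on every array. The summed intensity of the macrophage list was 1393 and 1184 at baseline, then 1034 at 2 h and 1219 at 8 h. Of its 2 tested markers, Lyz2 read 429 and 329 at baseline, then 199 at 2 h and 274 at 8 h. Cd68 went the other way at 2 h, at 263 and 270 at baseline, then 284 at 2 h and 203 at 8 h. The 5 B cell markers, of which 4 passed the filter, summed to 2270.2 and 2295 at baseline, then 2249 at 2 h and 2929 at 8 h. Cd79b read 1070 and 1091 at baseline, then 1020 at 2 h and 1228 at 8 h. Ms4a1 read 576 and 488 at baseline, then 545 at 2 h and 895 at 8 h. Cd79a at 8 h lay between its baseline arrays. The part of such other cells in the GTPase values was not tested. In these bulk samples fewer cells of a type and less RNA per cell cannot be told apart.

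The comparison of 2 h of IFNa with baseline asks which members respond early. All 7 members with their own row were brighter on the 2 h array than on both baseline arrays, by 1.77-fold to 3.06-fold, and 4 of them rose: Gbp3, Gbp5, Irgm1 and Iigp1 (limma with Benjamini-Hochberg adjustment over 10699 genes, adjusted p under 0.05). None fell. Of all genes tested, 1.09% were called higher in this comparison and 0.00935% lower, and 44.5% lay above both baseline arrays, so that being brighter than both baseline arrays says little by itself. The median difference of the 7 members was 1.10 on the log2 scale, beside 0.06 for all genes tested. The same 4 members were at least 2-fold higher, as were 1.77% of all genes tested.

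Among the GBPs, Gbp5, which in mouse macrophages promotes assembly of the NLRP3 inflammasome, had baseline intensities of 562 and 706, then 1688 at 2 h and 408 at 8 h. The 2 h array was thus far above both baseline arrays and the 8 h array below both. Gbp5 rose at 2 h by 1.42 on the log2 scale (SE 0.22, adjusted p = 0.0226, limma), or 1.37 above the median of all genes, the 73rd largest difference of 10699. Gbp3, which is among the GBPs that gather on Toxoplasma vacuoles in mouse cells, read 401 and 375 at baseline, then 830.0 at 2 h and 478 at 8 h. Its baseline arrays differed by less than its distance to either IFNa array. Gbp3 rose at 2 h by 1.10 (SE 0.20, adjusted p = 0.0484, limma), close to the threshold.

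Gbp7, which in mouse macrophages helps to assemble the phagocyte oxidase and to recruit autophagy proteins, read 663 and 941 at baseline, then 1556 at 2 h and 656 at 8 h. Its baseline arrays were the farthest apart of any member, by 0.51 on the log2 scale, and its 2 h difference of 0.98 (SE 0.25) did not pass (adjusted p = 0.162, limma; 95% interval 0.40 to 1.55). Gbp9, another GBP seen on Toxoplasma vacuoles in mouse cells, read 781 and 855 at baseline, then 1443 at 2 h and 1486 at 8 h. It was the member with the smallest 2 h difference, 0.82 (SE 0.20, adjusted p = 0.152, limma), and the one whose 2 IFNa arrays both stayed at about the same distance above baseline. Gbp11, which RefSeq annotates as a transcribed pseudogene, read 804 and 830.1 at baseline, then 1518 at 2 h and 818 at 8 h. Its 8 h array fell between the baseline arrays, and its 2 h difference was 0.89 (SE 0.20, adjusted p = 0.105, limma).

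Among the IRGs, the regulator Irgm1 had the largest 2 h difference of the members. Its intensity was 1364 and 1586 at baseline, then 4507 at 2 h and 2540.2 at 8 h, so that both IFNa arrays lay above both baseline arrays. Irgm1 rose at 2 h by 1.62 on the log2 scale, or 3.06-fold (SE 0.21, adjusted p = 0.0103, limma), the 49th largest difference of 10699. The effector Iigp1, which attacks the vacuoles of Toxoplasma and Chlamydia in mouse cells, read 558 and 532 at baseline, then 1547 at 2 h and 776 at 8 h. Here too both IFNa arrays were above baseline, the 8 h array by much less. Iigp1 rose at 2 h by 1.51, or 2.84-fold (SE 0.20, adjusted p = 0.0110, limma). Leaving out either baseline array kept the 2 h fold of Irgm1 between 2.84 and 3.31 and that of Iigp1 between 2.77 and 2.91.

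The calls at 2 h depended on the processing. With rows of several genes added to the fit, or all rows of the array, limma called none of the members (nor any row). After quantile normalization it called all 7, with a prior of 34.8 degrees of freedom, but the same quantile values with the spread of the deposited values gave 3 calls, and the median of the members was 0.94 on quantile values. Gbp3 lost its call in 7 of 12 alternatives (adjusted p from 0.00291 to 0.570). IFNa and time in culture cannot be told apart, since untreated cells cultured equally long were not analysed here, and 1 label of the IFNa arrays names Janus kinase inhibitors as well, with or without.

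**Figure D1:**
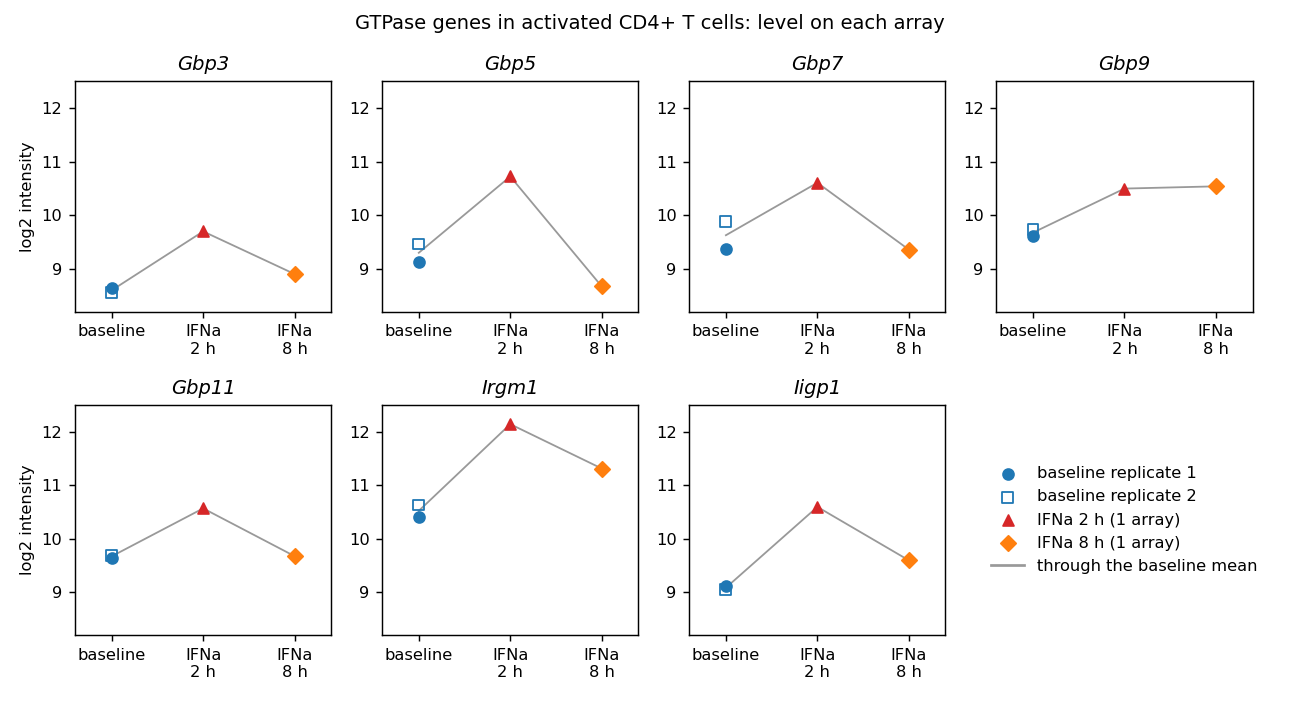
Log2 intensity of the 7 GTPase genes with a row of their own (vertical axis) on each of the 4 arrays (baseline, IFNa 2 h, IFNa 8 h); points are single arrays and the grey line runs through the baseline mean. Every gene is highest at 2 h except Gbp9, which is as high at 8 h. Gbp5 ends below both baseline arrays, as does Gbp7 by a small margin.

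The comparison of 8 h with baseline asks which members were still different later. No member was called in either direction (limma, adjusted p under 0.05), where 0.654% of all genes tested were called higher and 3.35% lower. At an unadjusted p under 0.05, 3 members were higher (Gbp9, Irgm1 and Iigp1) and 1 was lower (Gbp5), where 5.63% of all genes tested were higher and 19% lower at that threshold. Of the 7 members, 4 lay above both baseline arrays at 8 h, 2 (Gbp5 and Gbp7) lay below both and Gbp11 lay between them. Of all genes tested 24.4% lay above both and 55.9% below both. No member was at least 2-fold higher, where 0.57% of all genes tested were. The median difference of the members was 0.30, beside −0.16 for all genes tested.

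The members were spread widely at 8 h, from −0.63 to 0.86 on the log2 scale, while at 2 h they ran from 0.82 to 1.62. Gbp9 stood highest at 0.86 (SE 0.20, adjusted p = 0.0560, limma), or 1.82-fold and 1.03 above the median of all genes, and it ranked 85th of 10699. After quantile normalization Gbp9 was called, at 1.04 (adjusted p = 0.000459; over its 12 alternatives 0.000459 to 0.383). Irgm1 followed at 0.79 (SE 0.21, adjusted p = 0.0761, limma) and Iigp1 at 0.51 (SE 0.20, adjusted p = 0.171, limma), and these too were called after quantile normalization (0.90 and 0.78). Gbp3 stood at 0.30 and Gbp11 at 0.00, with 95% intervals of −0.16 to 0.77 and −0.46 to 0.46. Gbp7 was at −0.27, and 0.0114 after quantile normalization. Gbp5 stood lowest at −0.63 (SE 0.22, adjusted p = 0.144, limma; 95% interval −1.14 to −0.12), which is −0.46 relative to the median of all genes. Gbp5 kept its negative sign under all 12 alternatives (−0.71 to −0.36), called in none.

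The course between the times was tested directly, as 8 h against 2 h, with the spread of the baseline arrays and 1 array on each side. Of the 7 members 6 were dimmer at 8 h than at 2 h. With a median of −0.25, most of all genes tested were dimmer too, so being dimmer says little by itself. Of the members 4 passed: Gbp5, Gbp7, Iigp1 and Gbp11 (limma, adjusted p under 0.05). In this comparison 10.8% of all genes tested were called lower. At least 2-fold lower were 2 members, Gbp5 and Gbp7, and 8.65% of all genes tested. The median difference of the members was −0.89, beside −0.25 for all genes tested.

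Gbp5 had by far the largest drop of the members, with 408 at 8 h against 1688 at 2 h. It fell by 2.05 on the log2 scale, or fell by 75.8% (SE 0.26, adjusted p = 0.00833, limma), the 33rd largest fall of 10699, and it was called in 9 of 12 alternatives. Gbp7, with 656 at 8 h against 1556 at 2 h, fell by 1.25 (SE 0.29, adjusted p = 0.0333, limma). Iigp1 fell by 0.996 (SE 0.23, adjusted p = 0.0340, limma) and Gbp11 by 0.89 (SE 0.23, adjusted p = 0.0446, limma). Irgm1 at −0.83 and Gbp3 at −0.80 did not pass (adjusted p = 0.0571 for each, limma), so the calls do not separate them from Gbp11. Gbp9 was the exception, at 0.04 (SE 0.24, 95% interval −0.50 to 0.58), where the median of all genes was −0.25.

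**Figure D2:**
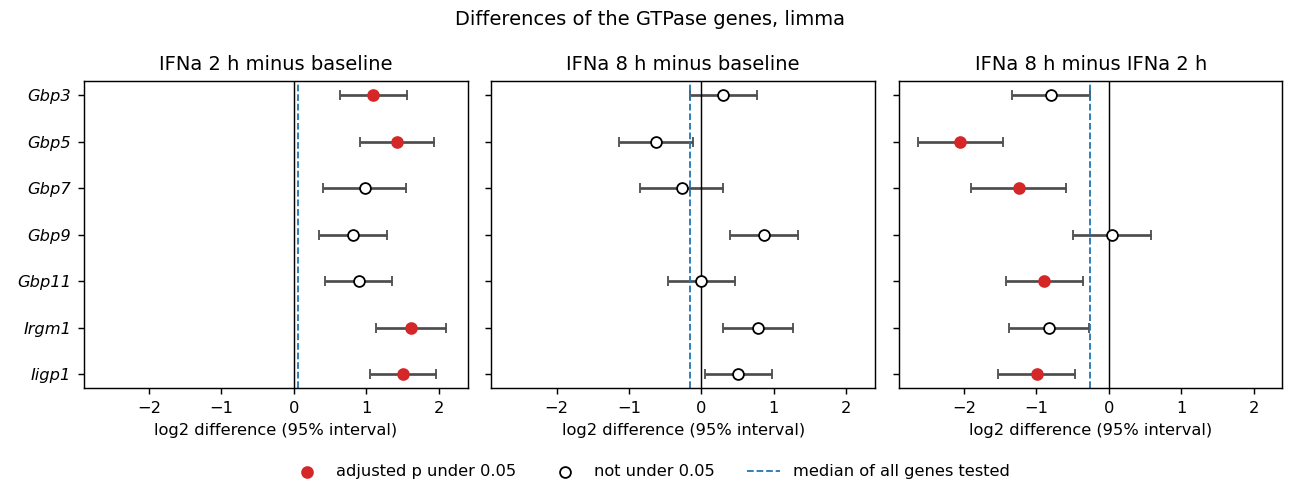
Log2 differences of the 7 GTPase genes (horizontal axis) with their 95% intervals from limma, for IFNa 2 h minus baseline, IFNa 8 h minus baseline and IFNa 8 h minus IFNa 2 h; filled points passed an adjusted p of 0.05 and the dashed line is the median of all 10699 genes tested. All 7 points lie above the dashed line at 2 h, and 6 of 7 below it in the last panel, with Gbp9 above.

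Quantile normalization reduced the drops, with the median of the members at −0.61 and 2 calls left (Gbp5 and Gbp7), and with no filter on dim genes 1 call was left, Gbp5. On arrays centred on their medians 6 members were called lower.

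Of the 4 members that rose at 2 h, Gbp5 and Iigp1 were also called lower at 8 h than at 2 h. Irgm1 and Gbp3 were not called, but whether their drops differ from that of Iigp1 was not tested, and the 95% intervals of Iigp1 (−1.53 to −0.46) and Irgm1 (−1.38 to −0.27) overlap. Of all genes tested 0.579% passed both tests in these directions. None of the 4 was called higher at 8 h against baseline. Over all 117 genes that rose at 2 h, 62 were called lower at 8 h than at 2 h and 45 were called higher at 8 h against baseline. These genes were chosen for a high value on the 2 h array, which the test of 8 h against 2 h uses again, so the choice itself favours falls and the 62 are a description; this holds for the 4 members too. The 2 differences from baseline share the baseline arrays, so they are set side by side and not correlated.

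**Figure D3:**
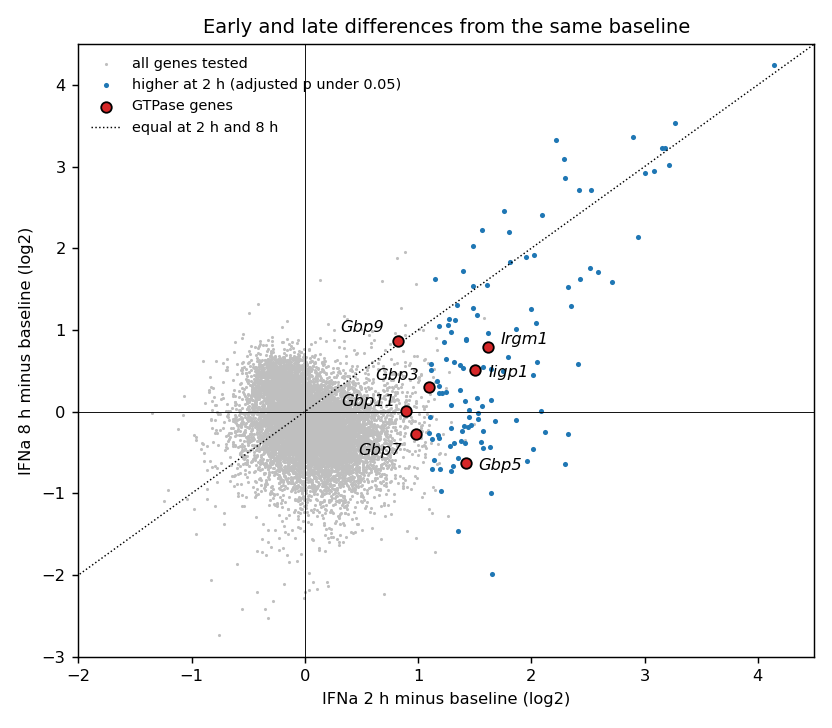
Log2 difference from baseline at 2 h (horizontal axis) and at 8 h (vertical axis) for all 10699 genes tested (grey), the 117 genes that rose at 2 h (blue) and the 7 GTPase genes (red); both axes use the same baseline arrays. Gbp9 lies at the dotted line of equal difference and the other members below it, Gbp5 lowest at −0.63.

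Gbp2, Irgm2 and Igtp could be read only through rows that the annotation gives to several genes, so none of their values belongs to 1 gene. Gbp2, which is needed for defence against Toxoplasma in mice, shares its row with its neighbour Gbp2b (the mouse gene once called Gbp1). That row read 3603 and 4168 at baseline, then 6067 at 2 h and 5455 at 8 h, with differences of 0.65 at 2 h and 0.49 at 8 h. Both IFNa arrays were above both baseline arrays. Gbp2b also has a row of its own, which was dim on all arrays and read 98.6 and 107 at baseline, then 120 at 2 h and 129 at 8 h. The regulators Irgm2 and Igtp share 1 row, which read 2374 and 2503 at baseline, then 3286 at 2 h and 2358 at 8 h. This row lay above baseline at 2 h only, by 0.43, and at −0.05 at 8 h. These rows were tested in a fit that added rows of several genes, in which limma called none of 12723 rows at 2 h (986 at an unadjusted p under 0.05); their adjusted p at 2 h was 0.635 for Gbp2 with Gbp2b and 0.636 for Irgm2 with Igtp.

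Relatives outside the 10 genes were listed as well. A row given to 6 GBPs of chromosome 5 (Gbp4, Gbp6, Gbp8, Gbp9, Gbp10 and Gbp11) read 2879 and 2441 at baseline, then 4976 at 2 h and 4135 at 8 h, with differences of 0.91 and 0.64. The IRG genes Tgtp1 and Tgtp2 share 2 rows, which stood at 0.66 and 0.77 at 2 h and at 0.23 and 0.30 at 8 h. Of 11 further relatives with a row of their own, 4 were dim and 7 were tested. At 2 h 2 of the 7 rose, beside 1.09% of all genes tested. None was called at 8 h against baseline, where 0.654% of all genes tested were higher and 3.35% lower. Lower at 8 h than at 2 h was 1 of the 7, beside 10.8% of all genes tested, which says nothing particular to them. Those that rose were Gm12185 (1.31, adjusted p = 0.0255), which lies near Irgm1 on chromosome 11, and Gm4951 (1.25, adjusted p = 0.0261), which is on chromosome 18, as Iigp1 is. Gm4951 was then lower at 8 h than at 2 h, at −1.005 (adjusted p = 0.0333). Gm12185 read 135 and 156 at baseline, then 361 at 2 h and 221 at 8 h. It passed the brightness filter through the IFNa arrays alone, so its place among the 7 depends on its rise and the count is a description. Gbp4 and Gbp8, which lie beside Gbp9, stood at 0.46 and 0.24 at 2 h and at 0.10 and −0.10 at 8 h, and neither passed. Very large interferon-inducible GTPases, a further branch, were read on shared rows too: 2 rows given to Gvin1 and 4 relatives stood at 0.20 and 0.20 at 2 h and at 0.73 and 0.74 at 8 h, and Gm1966, 1 of those relatives, stood on its own row at 0.17 and 0.62. A row given to Gvin1 and Gm4070 stood at 0.69 and 0.58. None of these was called. Atl3, an atlastin of the endoplasmic reticulum listed as a distant relative, stood at 0.84 at 2 h and −0.28 at 8 h, also with no call. Near-identical copies can share probes, and how far the rows of these families read each other's transcripts was not tested.

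**Figure D4:**
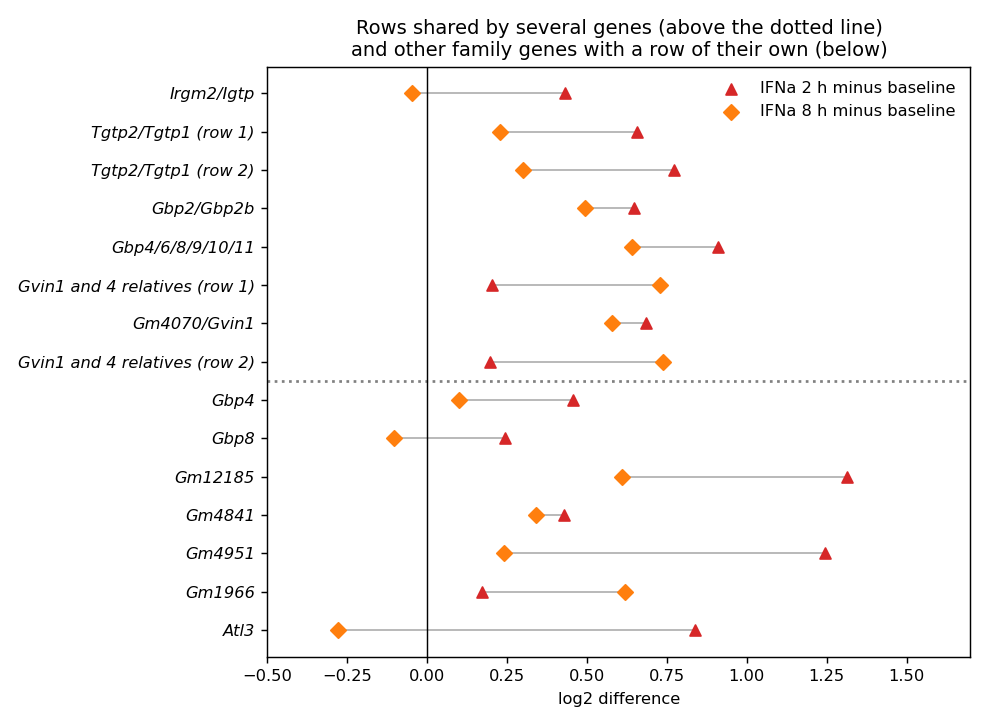
Log2 difference from baseline at 2 h (triangles) and at 8 h (diamonds) for 8 rows given to several related GTPase genes (above the dotted line) and 7 relatives tested on rows of their own (below it). The GBP and IRG rows are higher at 2 h than at 8 h, with the largest 2 h values at Gm12185 (1.31) and Gm4951 (1.25), while Gm1966 and the rows of Gvin1 and 4 relatives are higher at 8 h.

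The genes upstream of the family and around it were read from lists chosen for this account. Of 21 genes of interferon signalling, 3 rose at 2 h (Irf7, Usp18 and Stat2) and none fell; at 8 h 3 were higher and 2 lower. Of all genes tested 1.09% rose at 2 h, and at 8 h 0.654% were called higher and 3.35% lower. The chains of the type I receptor were not called, with Ifnar1 at 0.90 at 2 h and 0.24 at 8 h and Ifnar2 at 0.04 and 0.11. Stat2, a subunit of ISGF3, stood at 1.42 at 2 h (adjusted p = 0.0261) and 0.88 at 8 h (adjusted p = 0.0725), a course near that of Irgm1. Irf9, the subunit of ISGF3 that recognises its element, stood at 1.04 (adjusted p = 0.0613) and at 8 h was called at 0.99 (adjusted p = 0.0388). Irf7, a factor that amplifies type I interferon, and Usp18, which restrains its receptor, were called at both times, at 3.15 and 3.22 at 2 h and 3.23 and 3.02 at 8 h. Irf1, a factor of the interferon gamma arm known to drive many GBP genes, stood at 0.23 at 2 h and −0.53 at 8 h and passed at neither. Irf8 fell at 8 h by 1.69 (adjusted p = 0.00661) and Socs1, an inhibitor of Janus kinases, by 1.05 (adjusted p = 0.0452). Ifng itself stood at 0.40 at 2 h and −0.19 at 8 h, called at neither.

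Of 26 tested genes through which GBPs and IRGs are modified or guided to vacuoles, 1 rose at 2 h and the same gene was called at 8 h, Rnf213, a large ubiquitin ligase (2.03 and 1.92, adjusted p = 0.00269 and 0.00328). In the comparison of 8 h with 2 h, 2 of the 26 were lower, Gabarapl1 of the Atg8 family (−1.61) and the ubiquitin ligase Traf6 (−1.37), where 10.8% of all genes tested were called lower. Against baseline 1.09% of all genes tested were called higher at 2 h, and at 8 h 0.654% were called higher and 3.35% lower. The counts of the list say nothing particular to it. Of 11 tested genes of inflammasomes and lytic death, none was called against baseline at either time, which at those shares says little for 11 genes. Lower at 8 h than at 2 h were 2 of the 11, again beside 10.8% of all genes tested. These were Casp4, the mouse caspase that senses bacterial lipopolysaccharide freed with the help of GBPs, and Ninj1, which ruptures the membrane in lytic death, at −1.15. Casp4 stood at 1.07 at 2 h against baseline (not called) and −1.004 at 8 h against 2 h. Its intensities were 176 and 143 at baseline, then 333 at 2 h and 166 at 8 h. Casp4 passed the brightness filter through the 2 h array alone, so its fall from that array is a description.

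Which other genes ran most like the members was measured by the Euclidean distance, on the log2 scale, of their 2 differences from baseline over the 4 arrays. Gbp3 itself stood at the members' median for both times. The genes nearest to that median were Mex3b (distance 0.05), Ino80c (0.08), Tmem140 (0.09), Vps37b (0.09), 1600014C10Rik (0.10), B4galt5 (0.10), Akap13 (0.11) and Susd6 (0.11). The nearest to Irgm1 were Isg20 (0.17) and Stat2 (0.21), and the nearest to Gbp9 were Pml (0.07) and Nmi (0.08), with Pml at 0.83 at 2 h and 0.93 at 8 h. Iigp1 had Mt2 (0.02) and Ccrl2 (0.08) nearest, Gbp5 had Prrg4 (0.09), Gbp7 had Slc25a38 (0.04) and Mpzl2 (0.04), and Gbp11 had Irf2bpl (0.03) and Pdgfb (0.03). With 4 arrays such likeness is a description of these samples.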

How the data were processed

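Each of the 4 RNA samples had its own Affymetrix Mouse Gene 1.0 ST array. The deposited intensity values are linear and were made by the authors with RMA, run in Affymetrix Power Tools according to the submitters' processing notes. RMA subtracts background, normalizes the arrays to each other and summarises each transcript's probes. Versions and which arrays were processed together are not given in the sources used here. Why the deposited arrays had unlike distributions was not tested. RMA keeps some unspecific signal, which understates folds of dim genes. Log2 of the deposited intensity was taken with no pseudocount. Of 24922 rows, 21425 named 1 gene, 1399 named several and 2098 were unnamed; symbols were checked in a RefSeq table of GRCm38.p6, used for names and neighbours. A gene was its row of highest mean, kept when above the array's median on at least 1 array (10699 genes; 9053 dim).

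The test was that of limma 3.58.1 (R 4.3.3), with a mean per group, two-sided, Benjamini-Hochberg adjusted over all genes tested. The spread came from the 2 baseline arrays (1 residual degree of freedom, a prior SD of 0.175 with 7.46 degrees of freedom). The number of arrays limits the precision. On simulated data with 200 of 10699 genes changed, 2 h against baseline found 73.1% of 2-fold and 100% of 4-fold changes. Of its calls 11.7% were false. The test of 8 h against 2 h found 40.3% and 98.5%, with 10.2% of its calls false. All simulated arrays had the same spread and no array-wide shift. The deposited arrays had unlike distributions, so these rates need not hold for them. Alternatives changed the scaling, filter, prior, threshold, rows and pseudocount (16), and left out each baseline array.

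The members, lists and tests were chosen with earlier results of these data known. All 10 members are named, with called genes of 4 further lists, 7 signalling genes as values and the genes nearest by distance; the fits with rows of several genes were added after seeing the data.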

Additional observations from a re-analysis of the deposited data

Results flagged for a closer look

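The difference between the 2 h and 8 h responses was past the threshold for 4 members, each lower at 8 h than at 2 h on the log2 scale: Gbp5 at −2.05, Gbp7 at −1.25, Iigp1 at −0.996 and Gbp11 at −0.89 (limma, 8 h against 2 h, adjusted p from 0.00833 to 0.0446, 1 array on each side). Among relatives and listed genes it was past the threshold, also downwards, for Gm4951 at −1.005. In interferon signalling it was so for Ifngr2, a chain of the interferon gamma receptor, at −1.16, for Irf8 at −1.46 and for Socs1 at −1.32. In the vacuole list it was so for Gabarapl1 at −1.61 and Traf6 at −1.37. In the inflammasome list it was so for Ninj1 at −1.15 and for Casp4 at −1.004, which passed the brightness filter through the 2 h array alone. Of all genes tested 10.8% were lower by this test, and the median of all genes was −0.25.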

How the results depend on the processing

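Each baseline array left out in turn gave 4 or 5 members at least 2-fold higher at 2 h (4 with both) and none at 8 h, and member medians of 1.14 and 1.23 at 2 h and of 0.26 and 0.35 at 8 h, with no test. Of members higher at 2 h (4), quantile normalization gave 7, and all rows of the table, all rows above the filter or all named rows above the filter gave 0 (1141, 996 and 986 rows at an unadjusted p under 0.05); in these the prior had 3.51, 2.99 and 3.18 degrees of freedom, against 7.46. Members higher at 8 h (0) became 3 after quantile normalization, 1 with quantile values and the spread of the deposited values, and 2 at an adjusted p under 0.1, and the quantile values gave 1 at least 2-fold higher and a median of 0.58. Members lower at 8 h against 2 h (4) became 2 after quantile normalization or with a 2-fold minimum, 1 with the deposited spread or no filter, and 0 in each of the 3 fits with more rows; those at least 2-fold lower (2) became 1 after quantile normalization and 5 on centred arrays, and the median moved to −0.61 after quantile normalization. The sign turned for Gbp7 at 8 h (0.0114 with quantile values under either spread), for Gbp11 at 8 h (−0.0767, centred) and for Gbp9 at 8 h against 2 h (−0.14, centred), none of them called. Over single members and alternatives, 77 values at 2 h, 91 at 8 h and 59 at 8 h against 2 h counted as unchanged. With a test, this meant the same side of the threshold and the same direction. With 1 baseline array left out, a value always moves by less than the spread of the baseline arrays. Such values, at 2 h and at 8 h, were therefore bound to count as unchanged and say nothing about stability. Calls were lost by 16, 0 and 21 values and gained by 5, 4 and 3. Beyond the smaller prior, the cause was not tested. With other settings the genes called at 2 h over the whole table ran from 0 to 332 higher (117 as reported), and those lower at 8 h against 2 h from 0 to 2315 (1155 as reported). No paired analysis was possible because the groups share only replicate number 1. Signals near background limit the folds of dim relatives such as Gbp2b.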
